A study of Mus musculus with 8 samples.

Results

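Il4, Il21 and Il10 are 3 cytokine genes of helper T cells, out of 37063 gene names on the array, and their transcripts were followed with 4 of the 56587 usable microarray probes. The members were the probes whose gene name in the scanner files is Il4 (1 probe), Il21 (2 probes) or Il10 (1 probe), a rule by name alone, although these genes were picked with earlier results of the data known. The measurements came from 8 one-colour arrays of RNA from isolated CD4+ T cells of C57BL/6 mice, 1 array per sample and 2 samples per group. The groups were mice carrying the tumour MCA-OVA and given anti-IL-6R Ab, which blocks the receptor of interleukin-6, mice carrying MCA-OVA and given control Ab, tumor-free mice given anti-IL-6R Ab, and tumor-free mice given control Ab. MCA-OVA is the fibrosarcoma line MCA205 made to express ovalbumin (OVA). Mice of every group had also received CD4+ T cells carrying a transgenic receptor for OVA, followed by dendritic cells loaded with OVA peptide, and cells were taken 4 days after that immunisation. The labels do not say whether transferred cells were separated from the host's own CD4+ T cells. The labels state 2 independent experiments per condition but not which samples of different groups share one, nor the mice behind a sample, so p-values measure only the spread between these samples. The series asks how IL-6 inhibits Th1 cells, the helper subset that makes interferon-gamma, in mice with tumours.

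IL-4 is the signature cytokine of Th2 cells and is also made by follicular helper T cells (Tfh), which help B cells in germinal centres. It signals through the IL-4 receptor alpha chain and the common gamma chain to STAT6, and drives B cells to switch antibody class and T cells towards the Th2 fate. IL-21 is the hallmark product of Tfh cells, signals through its own receptor chain and the common gamma chain mainly to STAT3, and sustains germinal centre B cells and plasma cell formation. IL-10 is made by many T cell subsets and myeloid cells, signals through the IL-10 receptor to STAT3, and restrains antigen-presenting cells. IL-6 activates STAT3 in CD4+ T cells, and the transcription factor c-Maf, which IL-6 can induce, is known to activate all of Il4, Il21 and Il10.

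The first 30 of the 60 bases of each probe are shown because the readings of the 2 Il21 probes differed and the sequence is what tells them apart. All are written as the files give them, with positions on mm9 for the whole probe. The Il4 probe A_51_P237865 lies at chr11:53426076-53426135 on the minus strand, and the Il10 probe A_51_P430766 lies at chr1:132920943-132921002 on the plus strand. The Il21 probe A_55_P2106121 lies at chr3:37121681-37121740 and the Il21 probe A_55_P2744827 at chr3:37124300-37124359, both on the minus strand. The files list 2 RefSeq transcripts for A_55_P2106121, and for A_55_P2744827 only the one that RefSeq calls transcript variant 1. Exon and intron positions of the probes were not analysed here.
Il4 A_51_P237865: gtccaagtccacatcactgaaagacttcct
Il21 A_55_P2106121, both listed transcripts: tgtttgtgttcatggcttcttatttaagac
Il21 A_55_P2744827, variant 1: aaatgcatttctttcacttccatgttgtgt
Il10 A_51_P430766: ggaaaacctcgtttgtacctctctccgaaa

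The 250 bases before the starts of Il4 and Il21 are shown, from RefSeq on GRCm38.p6 and written along the gene's own strand. No window for Il10 was available. Capitals mark matches on either strand to the NFAT core GGAAA, the c-Maf element TGCTGA or a STAT form with TTC and GAA 4 bases apart. The Il4 window at chr11:53618666-53618915 held 5 NFAT cores and 3 c-Maf elements, which start at positions -234, -120 and -47 from the start of the gene. It also held 1 STAT form, which overlaps an NFAT core. The Il21 window at chr3:37232637-37232886 held 3 NFAT cores and 1 c-Maf element. Neither window held the AP-1 form TGANTCA, the STAT form TTCNNNGAA or the TATA box TATAAA. Over 32817 windows of the same length, 55.6% held an NFAT core, 16.1% a c-Maf element, 5.85% the STAT form with the 4-base gap, 6.75% the form TGANTCA, 7.01% the form TTCNNNGAA and 12.4% the TATA box. A second Il4 window, at chr11:53617339-53617588, held none of these letters. A match describes the letters and is not evidence that a factor binds.
Il4, upstream window: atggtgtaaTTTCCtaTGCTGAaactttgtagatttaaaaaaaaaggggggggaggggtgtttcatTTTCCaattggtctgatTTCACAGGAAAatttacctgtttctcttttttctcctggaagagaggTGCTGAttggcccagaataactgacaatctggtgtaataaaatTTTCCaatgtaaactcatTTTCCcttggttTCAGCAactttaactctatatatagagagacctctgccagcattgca
Il21, upstream window: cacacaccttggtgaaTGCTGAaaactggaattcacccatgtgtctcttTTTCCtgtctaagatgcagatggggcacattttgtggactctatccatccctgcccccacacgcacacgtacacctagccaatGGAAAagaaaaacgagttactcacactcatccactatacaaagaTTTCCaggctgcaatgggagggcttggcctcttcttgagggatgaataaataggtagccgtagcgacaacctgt

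Each level below is the log2 of a probe's processed signal minus the log2 of its array's 75th percentile signal, so that 0 means a signal at that percentile, which lay between 500.3 and 526.6 units. Levels of different probes are not compared with each other. The software called 53.09% to 59.76% of probes well above background, down to signals of 24.15 to 36.28. Over the 32039 probes tested below, arrays of the same group correlated at 0.9919 to 0.993 and arrays of different groups at 0.9784 to 0.9918. All 10 listed CD4 T cell markers, among them Cd4 and Cd3e, were well above background. Differences were tested with limma on the 32039 probes that 1 group or more had well above background on both its arrays, with Benjamini-Hochberg adjustment over all of them and a threshold of 0.05. All 4 member probes passed that filter, the variant 1 probe of Il21 through the tumour-bearing, control antibody group alone. Shares and medians of all probes given below are over these 32039. All arrays were on 1 slide, where host varied by row and antibody by column, so position on the slide cannot be told apart from the groups.

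Il4, the Th2 and Tfh cytokine gene, was high in 1 group, that of tumour-bearing mice given control antibody, and lower in the other 3. Its level was -0.36 and -0.25 in tumour-bearing mice given anti-IL-6R, against 1.49 and 1.12 in tumour-bearing mice given control antibody. In tumour-free mice it was -0.86 and -0.87 under anti-IL-6R, against -0.96 and -1.42 under control antibody. No group overlapped another, and in processed signal the arrays ran between 195.2 and 1481 units. With 2 arrays a group, 27.8% of all probes had both tumour-bearing arrays above both tumour-free arrays under control antibody, and 34.1% had both anti-IL-6R arrays below both control arrays in tumour-bearing mice. Every array stood well above background. Under control antibody Il4 was 5.65-fold higher in tumour-bearing than in tumour-free mice (log2 difference 2.50 ± 0.17, SE; 95% interval 2.10 to 2.89; adjusted p = 0.0007, limma). In tumour-bearing mice it was 3.05-fold lower under anti-IL-6R than under control antibody (log2 difference -1.61 ± 0.17, 95% interval -2.0 to -1.21, adjusted p = 0.02). That call was lost without replicate 8, a tumour-bearing mouse sample under anti-IL-6R (-1.66, adjusted p = 0.075), and held without any other array. Fewer Il4-transcribing cells and less Il4 RNA per cell cannot be told apart in such isolates.

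The mean Il4 level was -0.30 in tumour-bearing mice given anti-IL-6R and 1.30 in tumour-bearing mice given control antibody, and -0.87 in tumour-free mice given anti-IL-6R and -1.19 in tumour-free mice given control antibody. From high to low the order was thus tumour-bearing with control antibody, tumour-bearing with anti-IL-6R, tumour-free with anti-IL-6R and tumour-free with control antibody, and no difference among the lower 3 passed the test. Under anti-IL-6R the host difference was 0.56 (95% interval 0.17 to 0.96, adjusted p = 0.59), and the antibody difference in tumour-free mice was 0.33 (interval -0.07 to 0.72, adjusted p = 0.65). Tumour-bearing mice given anti-IL-6R lay 0.89 above tumour-free mice given control antibody (adjusted p = 0.11). Every anti-IL-6R array was below every control array in tumour-bearing mice and above every control array in tumour-free mice, as for 23.0% of all probes in the second case. Subtracting the antibody effect of tumour-free mice from that of tumour-bearing mice gave -1.94 ± 0.24 (SE), which missed the threshold (adjusted p = 0.056). It passed without replicate 1, 6 or 7 (-2.17, -1.95 and -1.88, adjusted p = 0.038, 0.04 and 0.048).

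Il21, the Tfh cytokine gene, was highest in tumour-bearing mice given control antibody and lowest in both tumour-free groups, as read by the probe listed for 2 transcripts. Its level was -0.90 and -0.33 in tumour-bearing mice given anti-IL-6R, against 0.47 and 1.16 in tumour-bearing mice given control antibody. In tumour-free mice it was -2.47 and -2.30 under anti-IL-6R, against -2.03 and -2.70 under control antibody. The 2 tumour-bearing groups did not overlap with each other or with the tumour-free groups, while the 2 tumour-free groups overlapped. Under control antibody Il21 was 9.06-fold higher in tumour-bearing than in tumour-free mice (log2 difference 3.18 ± 0.30, SE; 95% interval 2.50 to 3.86; adjusted p = 0.0018, limma). This call held with each of the 8 arrays left out in turn (2.83 to 3.52), as did that of Il4 (2.27 to 2.73). In tumour-bearing mice Il21 was 2.69-fold lower under anti-IL-6R than under control antibody (log2 difference -1.43 ± 0.30, interval -2.11 to -0.75, adjusted p = 0.042). That call was lost without any 1 of the 4 tumour-bearing arrays: the difference was -1.77, -1.08, -1.14 and -1.72 without replicates 3, 4, 7 and 8, with adjusted p = 0.066, 0.13, 0.094 and 0.15.

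By the Il21 means, tumour-bearing mice stood at -0.62 under anti-IL-6R and 0.81 under control antibody, and tumour-free mice at -2.38 under anti-IL-6R and -2.37 under control antibody. The tumour-bearing, anti-IL-6R group lay between, 1.76 above tumour-free mice given the same antibody (95% interval 1.09 to 2.44, adjusted p = 0.081) and 1.75 above tumour-free mice given control antibody (interval 1.07 to 2.43, adjusted p = 0.069), or 1.17 and 1.13 with normexp background correction. Both differences missed the threshold although no arrays overlapped, which under anti-IL-6R held for 16.0% of all probes in this direction. In tumour-free mice the antibody difference was -0.01 (interval -0.69 to 0.66, adjusted p = 0.99). The antibody effects in the 2 hosts differed by -1.41 ± 0.42 (SE), which did not pass (adjusted p = 0.12).

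The variant 1 probe of Il21 read near background everywhere and did not show this pattern. Its level was -3.97 and -3.58 in tumour-bearing mice given anti-IL-6R, against -3.93 and -3.71 in tumour-bearing mice given control antibody. In tumour-free mice it was -3.53 and -4.0 under anti-IL-6R, against -4.36 and -4.45 under control antibody. It was well above background on 4 of the 8 arrays and on neither of the tumour-free, control antibody arrays. The mean in tumour-bearing mice given control antibody was 1.11-fold the lowest signal called well above background on those dim arrays. The probe passed the filter through that tumour-bearing group alone, so this direction is not a result. The difference between these groups was not called (95% interval 0.93-fold to 2.41-fold, adjusted p = 0.28, limma). In tumour-bearing mice the antibody difference was 0.04 (95% interval -0.64 to 0.73, adjusted p = 0.94). The 2 Il21 probes thus disagreed, and the statements on Il21 here rest on the other probe.

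Il10 was low on all arrays, and its levels in the 2 hosts did not overlap under either antibody. Its level was -2.30 and -1.75 in tumour-bearing mice given anti-IL-6R, against -2.71 and -2.34 in tumour-bearing mice given control antibody. In tumour-free mice it was -4.79 and -3.55 under anti-IL-6R, against -3.31 and -3.83 under control antibody. The value of -4.79 was the only one not well above background. All 4 tumour-bearing arrays lay above all 4 tumour-free arrays, as for 2.58% of all probes, and no more can be said of the tumour-free, anti-IL-6R array at -4.79 than that it was below its limit of -3.83. Within tumour-bearing mice both anti-IL-6R arrays lay above both control arrays, as for 25.7% of all probes, and the difference was not called.

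No single pair of groups passed the test for Il10. Under control antibody the host difference was 1.04 ± 0.41 (SE; 95% interval 0.10 to 1.99; adjusted p = 0.17, limma), and 0.51 with normexp background correction. Under anti-IL-6R it was 2.15 (interval 1.20 to 3.09, adjusted p = 0.14), 1.66 with the dim array set to its background limit and 0.78 with normexp. The tumour-bearing, control antibody group lay 1.64 above the tumour-free, anti-IL-6R group (adjusted p = 0.088), 1.16 with the dim array at its limit and 0.46 with normexp. Without replicate 6 both of these comparisons passed (adjusted p = 0.014 and 0.021), but the tumour-free, anti-IL-6R group was then the dim array alone, so no size is given and the calls carry no weight. Between antibodies the difference was 0.50 in tumour-bearing mice (interval -0.44 to 1.44, adjusted p = 0.47) and -0.60 in tumour-free mice (interval -1.54 to 0.34, adjusted p = 0.7), the second being -0.12 with the dim array at its limit. With normexp these were 0.32 and 0.047. These antibody effects differed by 1.10 ± 0.58 (SE, adjusted p = 0.29), by 0.62 with the dim array at its limit and by 0.28 with normexp.

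A host difference averaged over both antibodies was added after these levels had been seen. By that average Il10 was higher in tumour-bearing than in tumour-free mice (log2 difference 1.60 ± 0.29, SE; 95% interval 0.93 to 2.26; adjusted p = 0.039). With the dim array at its limit the difference was 1.35. That limit is the lowest signal of any probe called well above background on that array, so the value is set and not measured. The call was lost without any of replicates 1, 2, 3, 4, 7 and 8 (adjusted p = 0.076, 0.14, 0.08, 0.1, 0.083 and 0.12, with differences of 1.46 to 1.74). With normexp background correction the Il10 average was 0.64 (adjusted p = 0.04). Il4 and Il21 were higher by 1.53 and 2.47 on the same average (adjusted p = 0.0008 and 0.0011). By it, 1.43% of all probes were called higher.

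**Figure D1:**
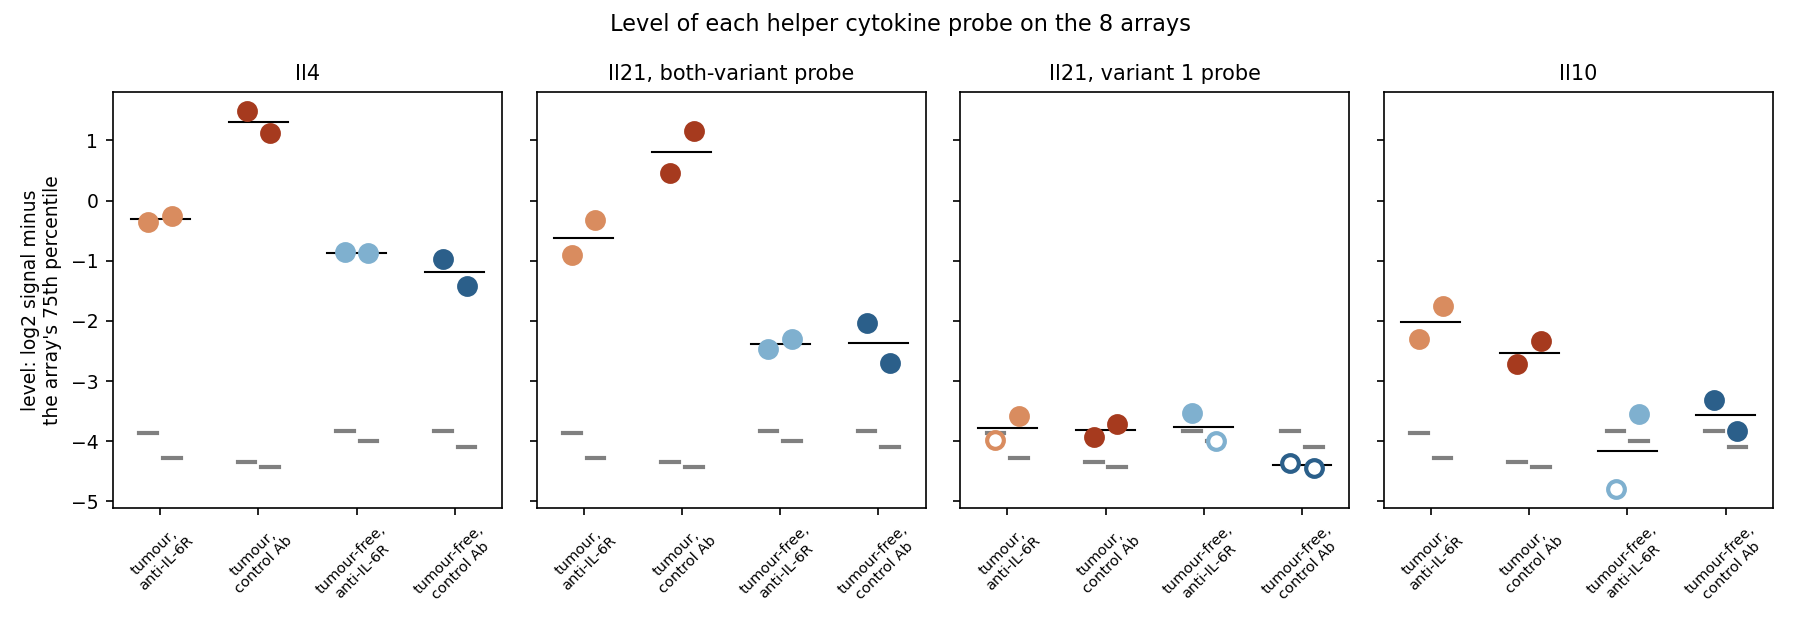
Level (log2 signal minus the array's 75th percentile, y axis) of the 4 member probes on each of the 8 arrays, by group on the x axis. Points are arrays (open where not well above background), black lines are group means of 2 arrays, and grey dashes mark the lowest signal called well above background on that array. Il4 and the first Il21 probe are highest in tumour-bearing mice given control antibody, while Il10 is higher in both tumour-bearing groups than in both tumour-free groups.

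Read against all probes, 2 of the 4 member probes were called higher in tumour-bearing than in tumour-free mice under control antibody, where 3.36% of probes were higher and 1.89% lower. For anti-IL-6R against control antibody in tumour-bearing mice, 2 of the 4 were called lower, where 2.76% of probes were lower and 1.51% higher. None of the 4 was called by limma between antibodies in tumour-free mice (0.0312% of all probes), and none passed at an unadjusted p under 0.05 (8.0%). Between hosts under anti-IL-6R none was called (0.209%) and 3 passed unadjusted (7.43%). For tumour-bearing, anti-IL-6R against tumour-free, control antibody none was called (0.309%) and 3 passed unadjusted (8.4%). For the difference of antibody effects none was called (0.025%) and 2 passed unadjusted (23.6%). The median difference over all probes was 0.012 between hosts under control antibody and -0.038 between antibodies in tumour-bearing mice. No share of probes at an unadjusted p under 0.05 is given for these comparisons, so list counts at that level below show no excess over all probes. Many probes reached it between hosts under control antibody, where Il10, at an unadjusted p = 0.034 by limma, ranked 6335 of 32039. The 2 comparisons share the tumour-bearing, control antibody arrays, so a gene that is high on those arrays moves in opposite directions in them by construction. Tumour-bearing mice given control antibody lay above tumour-free mice given anti-IL-6R, a pair that differs in both factors, by 2.17 for Il4 (adjusted p = 0.0011) and 3.19 for Il21 (adjusted p = 0.002), where 1.56% of probes were called higher.

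**Figure D2:**
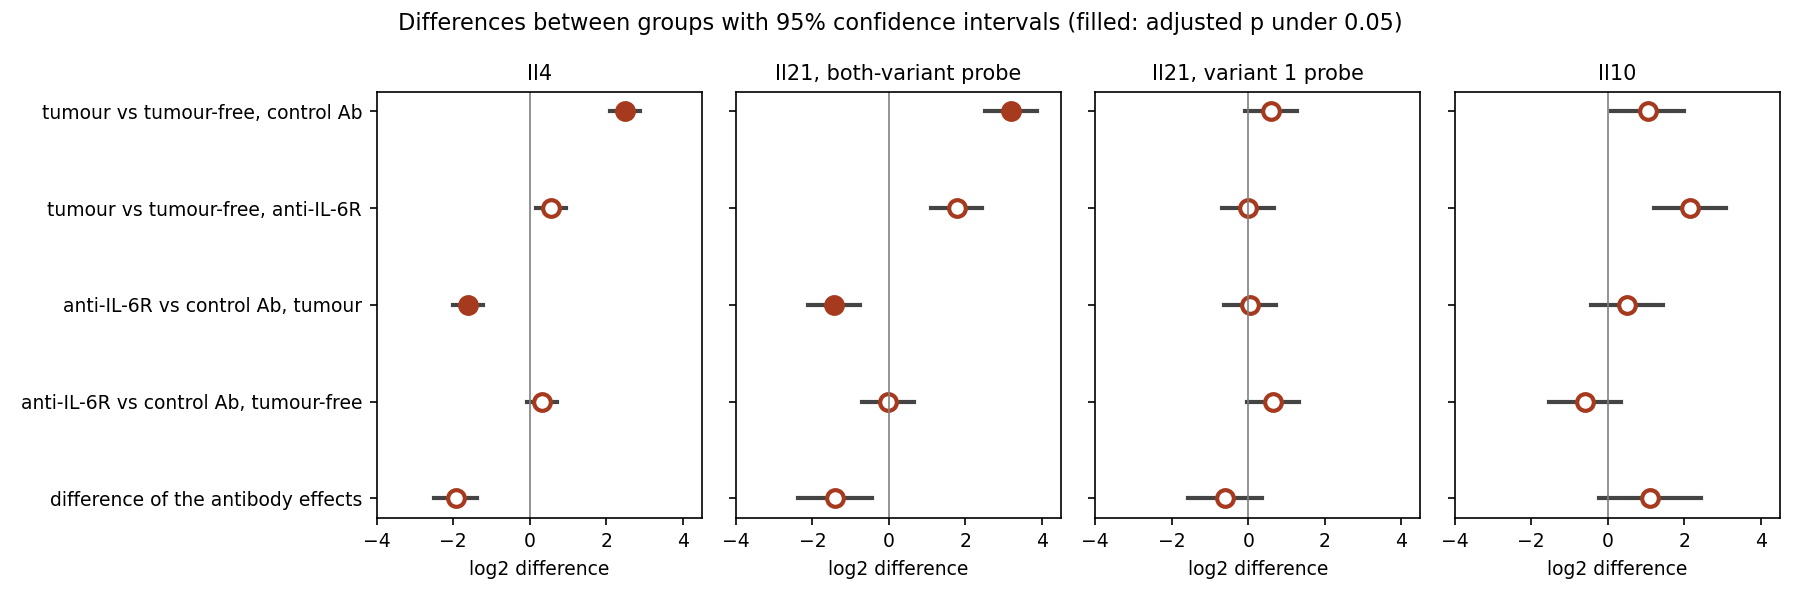
Log2 differences (x axis) of the 4 member probes for 5 comparisons (y axis), first-named group minus the second, with 95% confidence intervals from limma. Filled points have an adjusted p under 0.05: Il4 and the first Il21 probe between hosts under control antibody (2.50 and 3.18) and between antibodies in tumour-bearing mice (-1.61 and -1.43).

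Among 29 measured transcription regulators with a known part in Il4, Il21 or Il10 expression, 10 rose and 2 fell in tumour-bearing relative to tumour-free mice under control antibody, with a list median of 0.184. Maf, which encodes c-Maf, rose by 1.13 ± 0.09 (SE, adjusted p = 0.0013, limma), and its other 2 probes gave 1.11 and 1.15. Ahr, the aryl hydrocarbon receptor that acts with c-Maf on Il10 and Il21, rose by 0.99, and Nfil3, a factor that promotes Il10 in T cells, by 0.77. Egr2, an activation-induced zinc-finger factor, rose by 0.73. The 2 that fell were Notch1, a receptor that favours Il4 transcription, at -1.06, and Jun, an AP-1 subunit, at -0.90 (adjusted p = 0.0055 and 0.0051). Of these 12 calls, those of Maf, Jun and Notch1 held with each array left out, and 3 of the 12 held without replicate 2.

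Between antibodies in tumour-bearing mice, 5 of the 29 regulators fell and 2 rose, with a list median of -0.186. Gfi1, a repressor induced by IL-4, fell by 0.76, and Maf fell by 0.73 (adjusted p = 0.026 for each). Tbx21, the Th1 master factor that restrains Il4, fell by 0.60 (adjusted p = 0.043), and Batf, which pairs with IRF4 on Il21 and Il4, fell by 0.51 (adjusted p = 0.03). Jun rose by 0.68 and Notch1 by 0.59 (adjusted p = 0.028 and 0.046). None of the 7 calls held without replicate 8, and 1 held without replicate 3. Bcl6, the Tfh master factor, fell short at -0.39 (adjusted p = 0.055), Irf4 gave -0.23 (adjusted p = 0.34) and Prdm1, which encodes Blimp-1, a factor that supports Il10, gave 0.10 (adjusted p = 0.66). No regulator was called between hosts under anti-IL-6R, where Maf gave 0.14 (adjusted p = 0.6), or between antibodies in tumour-free mice; at an unadjusted p under 0.05 these counts were 4 and 5 of 29.

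**Figure D3:**
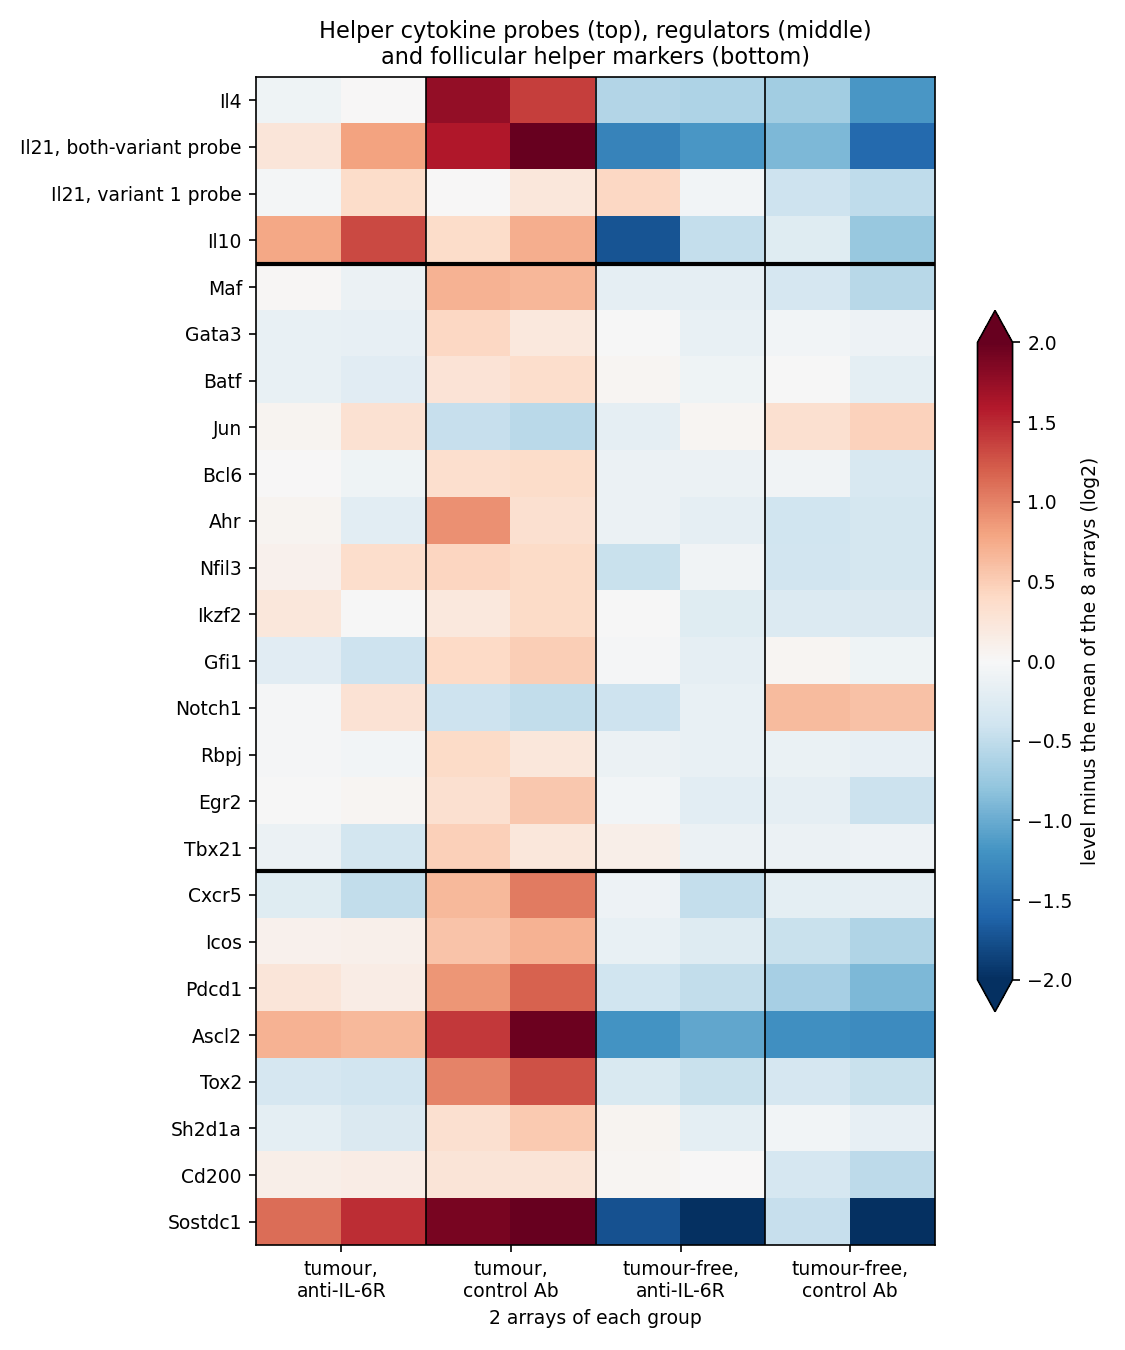
Level of each probe or gene (rows) on each array (columns, 2 per group) minus its mean over the 8 arrays, in log2, with colour saturating at 2 in either direction. Rows are the 4 member probes, the regulators called between hosts under control antibody or between antibodies in tumour-bearing mice, and the follicular helper markers so called. The column pair of tumour-bearing mice given control antibody stands out in Il4, Il21, Maf, Tox2 and Cxcr5, and both tumour-bearing pairs do in Il10 and Ascl2, whereas Sostdc1 was well above background on 1 of 2 arrays in each tumour-free group.

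Of 6 genes for receptor chains of the 3 cytokines, none was called between hosts under control antibody by limma, nor passed at an unadjusted p under 0.05. Their differences ran from -0.26 (Il13ra1) to 0.09 (Il2rg, the common gamma chain). Il4ra gave -0.02, Il21r -0.01, and the IL-10 receptor genes Il10ra and Il10rb 0.06 each. In tumour-bearing mice 1 of the 6 rose under anti-IL-6R, Il13ra1, the chain that joins IL-4 receptor alpha outside the lymphoid lineage, by 0.85 (adjusted p = 0.043). The call was lost without any of replicates 1, 2, 3, 4, 7 and 8. Its mean level was 0.04 in tumour-bearing mice given anti-IL-6R, against -0.81 in tumour-bearing mice given control antibody.

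Of 13 genes of Jak and Stat signalling, 2 rose between hosts under control antibody, both feedback genes induced by STAT5: Socs2 by 0.65 and Cish by 0.59 (adjusted p = 0.013 and 0.0059). Stat6, the transducer of IL-4, gave -0.10 (adjusted p = 0.55), and Stat3, the transducer of IL-6, IL-21 and IL-10, gave 0.26 (adjusted p = 0.089). Between antibodies in tumour-bearing mice Stat3 fell by 0.34 (adjusted p = 0.049). Its other 2 kept probes gave -0.13 and 0.04, and the call was lost without replicates 1, 2, 3, 4, 7 or 8. Socs3, a feedback gene of STAT3, gave -0.87 and missed the threshold (adjusted p = 0.064).

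Among 16 measured genes that IL-4, IL-21 or IL-10 can raise in lymphocytes, 7 rose between hosts under control antibody and none fell, with a list median of 0.437. Gzmb, which encodes granzyme B, rose by 1.75 ± 0.24 (SE, adjusted p = 0.0078), and Il1rl1, the receptor of IL-33 found on Th2 and regulatory T cells, by 1.42 (adjusted p = 0.0017). The Th2-associated chemokine receptor genes Ccr4 and Ccr8 rose by 1.08 and 0.88 (adjusted p = 0.016 and 0.026), and Cish and Bcl6 by 0.59 and 0.55. A second Bcl6 probe gave -0.04. Bcl6 and Gfi1 stand in the list of regulators as well, and Cish among the signalling genes. Calls of Il1rl1, Gzmb and Cish held with each array left out. Between antibodies in tumour-bearing mice 3 of the 16 fell, Ccr4 by 1.12, Il1rl1 by 0.84 and Gfi1 by 0.76, and none of these held without replicate 8. Gzmb stood at 1.96 in tumour-bearing mice given anti-IL-6R, against 2.06 in those given control antibody, and gave -0.10 (adjusted p = 0.81).

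Of 24 other helper cytokine genes, 18 were measured, and 3 of them rose between hosts under control antibody. Penk, the precursor of enkephalin, rose by 1.10 (adjusted p = 0.00098), Tnfsf11, which encodes RANKL, by 0.87 (adjusted p = 0.0075), and Ebi3, a subunit of IL-27 and IL-35, by 0.50 (adjusted p = 0.047). The call of Penk held with each array left out. Tnfsf11 also fell in tumour-bearing mice under anti-IL-6R, by 0.73 (adjusted p = 0.028), a call lost without replicates 3, 4 and 8. Ifng, the Th1 cytokine gene, gave -0.69 between hosts (adjusted p = 0.14) and 0.58 between antibodies in tumour-bearing mice (adjusted p = 0.18). Il13, which lies next to Il4 and is co-expressed with it in Th2 cells, was well above background on 3 of 8 arrays, none of them from tumour-free mice, and was not called between hosts (adjusted p = 0.41). Il5, Il6, Il9, Il17a, Il17f and Areg did not pass the filter on dim probes.

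Markers of the T cell subsets known to make these cytokines moved in the same comparisons. Of 10 Tfh markers 9 rose between hosts under control antibody, with a list median of 1.098. Calls of Icos, Pdcd1, Ascl2, Tox2 and Cd200 held with each array left out, and those of Cxcr5, Bcl6, Sh2d1a and Sostdc1 did not. Ascl2, which starts the Tfh programme, rose by 2.92, Pdcd1, which encodes PD-1, by 1.81, Tox2 by 1.53, Icos by 1.16 and the follicle-homing receptor gene Cxcr5 by 1.04 (adjusted p = 0.00043, 0.00066, 0.00075, 0.00075 and 0.012). Between antibodies in tumour-bearing mice 6 of the 10 fell, among them Tox2 by 1.50, Cxcr5 by 1.21 and Ascl2 by 1.01 (adjusted p = 0.003, 0.026 and 0.03). Of these 6, 1 (Tox2) held without replicate 8, and a second, dimmer Tox2 probe gave -0.36 between hosts and -0.47 between antibodies. Between hosts under anti-IL-6R, 1 of the 10 was called, Ascl2, by 1.80 (adjusted p = 0.013). The summed signal of the 10 genes, in multiples of the 75th percentile, was 58.5 to 61.07 in tumour-bearing mice given anti-IL-6R and 88.57 to 101.6 in those given control antibody. In tumour-free mice it was 52.29 to 58.55 under anti-IL-6R and 47.85 to 52.84 under control antibody. The 10 CD4 T cell markers had a list median of 0.187 between hosts under control antibody, and Cd5 was called (lost without replicate 2). Between antibodies in tumour-bearing mice the list median was -0.231, with none called and 6 at an unadjusted p under 0.05. The CD4 T cell sum was 674.3 to 753.1 in tumour-bearing mice given anti-IL-6R and 828.6 to 865.8 in those given control antibody. In tumour-free mice it was 753.3 to 795.6 under anti-IL-6R and 700.1 to 777.3 under control antibody.

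Of 7 regulatory T cell markers, 6 rose between hosts under control antibody, including Ctla4 by 0.90, Izumo1r by 0.69 and Foxp3, the lineage factor, by 0.40 (adjusted p = 0.026, 0.017 and 0.038). Without replicate 2, 1 of those 6 held. Ikzf2, counted among the 6 and among the regulators that rose, gave 0.59, but its other kept probes gave -0.195 and -0.364 (adjusted p = 0.53 and 0.38, limma). Ctla4 stood at 0.83 in tumour-bearing mice given anti-IL-6R, against 0.80 in those given control antibody, and gave 0.035 (adjusted p = 0.92), while Izumo1r and Tnfrsf18 fell by 0.67 and 0.33 (adjusted p = 0.029 and 0.044). Of 5 measured markers of group 2 innate lymphoid cells, which share genes with Th2 cells, 4 rose between hosts and 3 fell between antibodies, among them Rora by 0.79 and -0.68, and Gata3, the Th2 master factor, by 0.39 and -0.47. The host call of Gata3 was lost without any of replicates 1, 2, 3, 5, 6, 7 and 8. None of the antibody calls of either list held without replicate 8.

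Cells other than T cells can also transcribe these genes, and some of their markers moved with them. Basophils and mast cells are a source of IL-4. Of their 11 measured markers 1 rose between hosts and fell between antibodies, Prss34, a basophil protease gene, at -3.84 in tumour-bearing mice given anti-IL-6R, -2.52 in those given control antibody, and not well above background in tumour-free mice. Its host call was lost without replicate 2, 3 or 4, and its antibody call without replicate 3, 4 or 8. Most of the list went the other way, with 4 of the 11 above 0 between hosts and 7 above 0 between antibodies. The summed signal of the 11 was 7.206 to 10.24 in tumour-bearing mice given anti-IL-6R and 4.586 to 4.841 in those given control antibody, and in tumour-free mice 4.475 to 7.665 under anti-IL-6R and 5.835 to 6.219 under control antibody. Mcpt8, another basophil protease gene, stood at -2.04 in tumour-bearing mice given anti-IL-6R and -1.97 in those given control antibody, and was not well above background in tumour-free mice given control antibody (adjusted p = 0.15 between hosts). The receptor subunit gene Ms4a2 was not well above background on both arrays of any group. Of 5 measured eosinophil markers Prg2 rose between hosts, a call lost without replicate 1, 2, 3 or 4, and Epx did not pass the filter. The eosinophil list median between hosts under control antibody was -0.404, with 2 of the 5 above 0. The eosinophil sum was 4.451 to 8.185 in tumour-bearing and 8.172 to 8.44 in tumour-free mice given control antibody.

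Macrophages and monocytes are a source of IL-10. None of their 11 markers was called between hosts under control antibody (3 at an unadjusted p under 0.05). The list median there was -0.499, with 3 of the 11 above 0. Between antibodies in tumour-bearing mice it was 0.63, with all 11 above 0 and 5 at an unadjusted p under 0.05. Of the 11, Cd14 alone was called, rising under anti-IL-6R by 1.14 (adjusted p = 0.046), a call lost without replicate 1, 2, 4, 7 or 8. Their summed signal was 242.8 to 289.1 in tumour-bearing mice given anti-IL-6R and 177.7 to 228.6 in those given control antibody, and in tumour-free mice 201.3 to 236.2 under anti-IL-6R and 183.4 to 195.3 under control antibody. B cell markers fell between hosts in 5 of 10 cases, Ebf1 by 1.32 and Cr2 by 1.10 among them, while 5 of 7 plasma cell markers rose, Jchain by 1.76 and Derl3 by 1.60. None of the 5 B cell calls and 2 of the 5 plasma cell calls held without replicate 2. The B cell sum was 46.01 to 48.95 in tumour-bearing mice given anti-IL-6R and 24.86 to 34.48 in those given control antibody, against 47.3 to 48 in tumour-free mice given anti-IL-6R and 43.63 to 57.97 in tumour-free mice given control antibody. The part of these cells in the Il4, Il21 and Il10 levels was not tested.

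Neutrophil and erythroid genes moved in the direction of Il4 as well. Of 12 neutrophil markers 6 rose between hosts under control antibody, led by Ltf at 4.95 and Camp at 4.31 (adjusted p = 0.00066 and 0.00026), and the same number fell between antibodies in tumour-bearing mice. Their summed signal was 36.09 to 54.05 in tumour-bearing mice given anti-IL-6R and 122 to 130 in those given control antibody. In tumour-free mice it was 38.42 to 154.4 under anti-IL-6R, with the higher value on 1 array, and 34.21 to 54.27 under control antibody. Of 11 erythroid markers 8 rose between hosts and 5 fell between antibodies, with sums of 494.6 to 605.3 and 491.1 to 745.8 in tumour-bearing mice given anti-IL-6R and control antibody, against 513.4 to 617.9 and 194.2 to 377.2 in tumour-free mice given anti-IL-6R and control antibody. None of the 5 erythroid antibody calls held without replicate 8, against 4 of the 6 neutrophil calls. The part of these cells in the results was not tested.

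**Figure D4:**
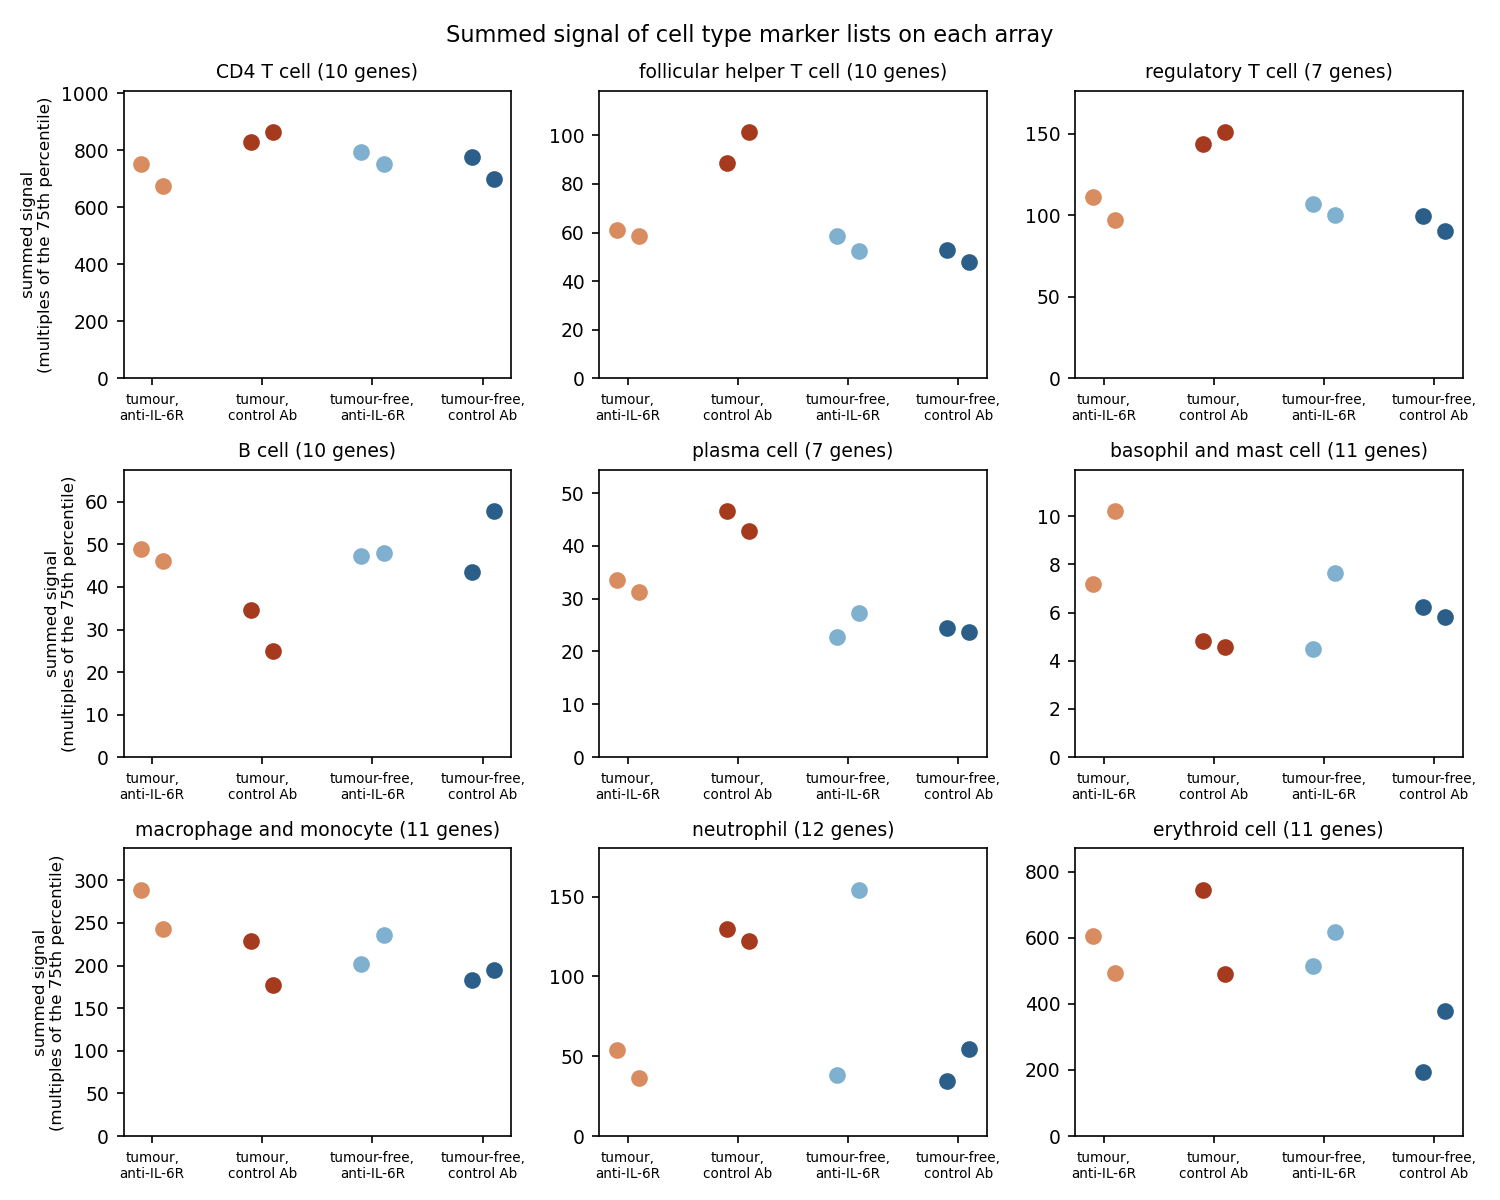
Summed signal (multiples of the array's 75th percentile, y axis from 0) of 9 marker lists on each array, by group on the x axis, 2 points per group. The follicular helper sum is highest in tumour-bearing mice given control antibody (88.57 to 101.6), and the basophil and mast cell sum there is 4.586 to 4.841.

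The probes most like each member over the 8 arrays were taken among 1798 named probes with an SD of at least 0.5. Since the arrays form 4 groups, this likeness, Pearson's r, mostly reflects shared differences between groups and is given as a description. Most like Il4 were Pdzk1ip1 (r = 0.986), Il1rl1 (0.982), Coro2b (0.981), a dim probe of Btnl10 (0.979), the vitamin D receptor gene Vdr (0.978) and the inhibitory receptor gene Lag3 (0.978), and 5.73% of the probes had r over 0.9. The brighter Btnl10 probe went the other way, with -0.39 between hosts under control antibody and 0.54 between antibodies in tumour-bearing mice. Most like Il21 were Krt83 (r = 0.985), Tnfrsf9, the costimulatory receptor 4-1BB (0.982), Ascl2 (0.981), the phosphatase gene Ptpn5 (0.981), Tnfsf4, which encodes OX40 ligand (0.979), and Vat1l (0.979), with 3.11% over 0.9. The Ptpn5 probe listed gave 1.275 between hosts under control antibody. The brightest Ptpn5 probe gave 0.21 there and another gave 0.40 (adjusted p = 0.26 and 0.36, limma). Tnfsf4 and Vat1l were dim, with means of -6.04 and -5.98 in tumour-free mice given control antibody. Between the members themselves r was 0.934 for Il4 and Il21, 0.768 for Il21 and Il10 and 0.549 for Il4 and Il10. For the 2 Il21 probes it was 0.442.

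Most like Il10 were a dim probe of Penk (r = 0.959), the monocyte-attracting chemokine gene Ccl2 (0.953), Rgs16, a regulator of G protein signalling (0.951), Speer5-ps1 (0.941), Sv2c (0.941) and Ccdc184 (0.918), with 0.501% of probes over 0.9. Ccl2, like Il10, had its highest mean in tumour-bearing mice given anti-IL-6R, at -1.43, against -2.13 in tumour-bearing mice given control antibody. It was -3.61 in tumour-free mice given anti-IL-6R and -2.95 in tumour-free mice given control antibody. Most like the variant 1 probe of Il21 were Mgl2 (r = 0.921), Igsf9b (0.883), Epcam (0.872), Mlf1 (0.847), Mcpt8 (0.825) and Dvl3 (0.821), a weaker likeness in a probe near background. Of these, the Mgl2, Igsf9b and Dvl3 probes were not the brightest of their genes.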

How the data were processed

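Gene expression was measured on 8 one-colour arrays of 62976 spots, 3671 of them controls. The deposited scanner files hold intensity values from the authors' scanner software, Agilent Feature Extraction; the submitters' processing notes give version 10.10.1.1. Signals were, per the file headers, background-subtracted and detrended, and probe positions are on mm9. The value table deposited by the authors holds log2 values with no stated scale. Its columns matched the log2 processed signal minus the array's 75th percentile, with a spread of the offset of at most 0.00134 and column medians between -3.337 and -3.094; it served as an alternative.

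Outlier spots (60 to 95 per array) were dropped, spots of a probe averaged and 18 of 56605 probes without a usable spot left out. No member spot was dropped or saturated. The log2 signals minus the 75th percentile were fitted in limma 3.58.1 (R 4.3.3) as 4 group means with an intensity trend (4 residual and 4.29 prior degrees of freedom), two-sided. Probes took RefSeq symbols through accessions (32986), symbols (10220) or synonyms (520), and 12861 kept the file's name. The number of arrays limits precision: an exact permutation test of 2 against 2 arrays cannot go below p = 0.333. On simulated data for the host comparison under control antibody (32039 probes), true log2 changes of 0.5, 1, 2 and 3 were called in 4%, 60%, 94% and 96% of 50 probes each. Only these 200 probes were changed, all in the tumour-bearing, control antibody group. Adjusted p-values depend on the share of probes changed, so these rates need not hold for the real comparison. Python 3.11.15 with pandas 2.3.3, scipy 1.17.1 and matplotlib 3.10.9 was used. No column was left unassigned to a sample.

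Members and gene lists were chosen with earlier results of these data known. A listed gene was read from its brightest kept probe and named where it passed the threshold, up to 6 per list and comparison by size of change, or with its value where it did not pass; up to 6 most similar probes were named per member. Medians of differences are over measured genes. Alternatives were normexp background correction (offset 50), quantile normalization, the deposited table, no filter or a stricter filter on dim probes, no variance trend, array weights, 1 probe per gene, only the arrays compared, and each array left out, where the other array of its group is assumed to vary like the other groups. Host and antibody averages, and a fit with dim member values set to the array's lowest signal well above background, were added after the data were seen.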

Additional observations from a re-analysis of the deposited data

Results flagged for a closer look

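Among the genes named or listed here, 5 had antibody effects that differed between tumour-bearing and tumour-free mice by limma's test of the difference itself, the effect in tumour-bearing mice minus that in tumour-free mice. They were the Tfh marker Tox2 at -1.51 (adjusted p = 0.04) and the neutrophil granule genes Ngp at -5.34, Ltf at -5.23, Camp at -4.42 and Mpo at -2.56 (adjusted p = 0.023, 0.032, 0.021 and 0.044). A second, dimmer Tox2 probe was not called between hosts or between antibodies. Each of these calls was lost with 1 array left out: Camp without replicate 3, Ltf and Ngp without 3 or 8, Tox2 without 2, 5 or 8, and Mpo without 2, 3, 4, 5 or 8. The same difference was -1.94 for Il4, -1.41 for Il21 and 1.10 for Il10, none past the threshold. Ngp was not well above background in tumour-bearing mice given anti-IL-6R, nor Mpo in tumour-free mice given anti-IL-6R, so their sizes are not exact.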

How the results depend on the processing

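No paired analysis was possible because the labels number the 8 samples once each and tie no samples of different groups together; the slide as a block was not run because there was 1 slide. The host differences of Il4 and Il21 under control antibody kept their call under every alternative run. With no filter on dim probes and with no variance trend, the antibody difference in tumour-bearing mice lost its call for Il4 (-1.61 in both, adjusted p = 0.052 and 0.053) and Il21 (-1.43 in both, adjusted p = 0.087 and 0.098), and the averaged host difference lost it for Il10 (1.60, adjusted p = 0.12 and 0.098), as with array weights (1.60, adjusted p = 0.055). These settings changed the number of probes or the variance estimate and left the difference as it was.

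Uncalled differences that changed sign were, for Il10 under normexp, 0.047 between antibodies in tumour-free mice and 0.184 averaged over hosts; under quantile normalization, 0.018 for Il21 between antibodies in tumour-free mice and -0.13 for its variant 1 probe in tumour-bearing mice; and with dim member values at the background limit, 0.191 for the Il10 antibody average and 0.037 for the variant 1 probe between hosts under anti-IL-6R. With 1 array left out, the ranges were -1.80 to -1.42 for Il4 and -1.77 to -1.08 for Il21 between antibodies in tumour-bearing mice, and -2.17 to -1.71 for the Il4 difference of antibody effects. For Il10 they were 1.28 to 1.91 for the averaged host difference, 1.52 to 2.77 between hosts under anti-IL-6R, 1.02 to 2.27 for tumour-bearing, control antibody against tumour-free, anti-IL-6R, -1.22 to 0.023 between antibodies in tumour-free mice and -0.36 to 0.26 averaged over hosts; the extremes without replicate 6 rest on 1 array that is not well above background. For Il21 between antibodies in tumour-free mice the range was -0.35 to 0.32. For the variant 1 probe it was -0.16 to 0.24 between antibodies in tumour-bearing mice, -0.25 to 0.22 between hosts under anti-IL-6R and -0.29 to 0.18 for tumour-bearing, control antibody against tumour-free, anti-IL-6R. Over all member results and alternatives 567 kept direction and side of the threshold, 18 lost a call, 5 gained one and 19 changed sign; the cause was not tested.

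Counts of probes called moved more. Between hosts under control antibody the count was 1681, against 674 with no filter, 722 with no trend, 901 with array weights and 427 to 1787 with 1 array left out (427 without replicate 2). Between antibodies in tumour-bearing mice it was 1369, against 15 with no filter, 56 with no trend, 908 with only the arrays compared and 24 to 1766 with 1 array left out (24 without replicate 8). Between antibodies in tumour-free mice it was 10, against 21 with normexp, 1 with the strict filter, 4 with array weights, 4 with 1 probe per gene, 19 with only the arrays compared and 8 to 52 with 1 array left out. Between hosts under anti-IL-6R it was 67, against 23 with no filter, 21 with no trend, 11 with only the arrays compared and 13 to 223 with 1 array left out. For tumour-bearing, anti-IL-6R against tumour-free, control antibody it was 99, against 24 with no filter, 44 with no trend, 41 with array weights, 174 with only the arrays compared and 15 to 182 with 1 array left out. For tumour-bearing, control antibody against tumour-free, anti-IL-6R it was 688, against 350 with no filter, 389 with no trend, 305 with only the arrays compared and 440 to 663 with 1 array left out. The difference of antibody effects had 8, against 13 with normexp, 5 with quantile normalization, 0 with no filter, 1 with the strict filter, 20 with no trend and 4 to 364 with 1 array left out. The host average had 526, against 326 with no filter, 342 with no trend and 288 to 536 with 1 array left out. The antibody average had 29, against 84 with normexp, 7 with no filter, 16 with the strict filter and 0 to 229 with 1 array left out. Of 258 calls of the other named genes, 98 held with each array left out. Il10 and the variant 1 probe lie close to background, where normexp compressed differences: the Il10 host difference under anti-IL-6R was 0.78 with it and 2.15 without.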

Other observations

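The chromosomal neighbours of the 3 genes, taken from RefSeq's gene order, were read in the same comparisons. Of 6 measured neighbours of Il4, Sowaha rose between hosts under control antibody (adjusted p = 0.044), not being well above background in tumour-free mice, and Kif3a fell between antibodies in tumour-bearing mice by 0.40 (adjusted p = 0.046); neither call held with each array left out. Rad50, the gene that houses control elements of the Th2 cytokine locus, gave 0.12 between hosts and -0.13 between antibodies (adjusted p = 0.52 and 0.45). Septin8, a septin gene, gave 0.82 and -0.86 (adjusted p = 0.056 and 0.052).

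None of the 5 measured neighbours of Il21 was called in either comparison by limma (1 in each at an unadjusted p under 0.05), and Il2, the T cell growth factor gene beside it, gave 0.44 between hosts (adjusted p = 0.53). Of 6 measured neighbours of Il10, Fcmr, the IgM receptor gene expressed by B cells, fell between hosts by 1.03 (adjusted p = 0.028) and rose between antibodies in tumour-bearing mice by 0.95 (adjusted p = 0.043), and neither call held without replicate 4. Mapkapk2, a kinase gene, rose between hosts by 0.31 (adjusted p = 0.041), a call lost without any 1 of the 8 arrays. The cytokine gene Il24 gave -0.14 between hosts (adjusted p = 0.89), and Il19 and Il20 did not pass the filter on dim probes.

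Of 8 natural killer cell markers, 1 rose and 3 fell between hosts under control antibody, and 3 rose between antibodies in tumour-bearing mice. Gzma, which encodes granzyme A, stood at 3.12 in tumour-bearing mice given anti-IL-6R, against 2.37 in those given control antibody, and at 3.46 in tumour-free mice given anti-IL-6R, against 3.23 in those given control antibody. It fell between hosts by 0.85 and rose between antibodies by 0.74 (adjusted p = 0.0041 and 0.026). None of the 3 antibody calls held without replicate 8. Of 2 CD8 T cell markers none was called in either comparison, nor at an unadjusted p under 0.05. Of 6 measured dendritic cell markers none was called, with 1 and 2 at an unadjusted p under 0.05 between hosts and between antibodies.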
